A study of Mus musculus with 2 samples.

Results

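De novo lipogenesis turns carbon from sugar into fatty acid, and 10 of its genes were followed in liver cells, each on its own: Acly, Acaca, Acacb, Fasn, Me1, Scd1, Elovl6, Elovl3, Srebf1 and Mlxipl. They were taken by name from the pathway and not for their values, and all 10 are among the 19059 genes measured. Livers came from 2 kinds of mice, both fed a high-fat, high-sugar diet (HF/HSD) from 7 weeks of age for 20 weeks and 27 weeks old at collection. In AEG-1DMAC mice both copies of the floxed gene of astrocyte elevated gene-1 (AEG-1, gene symbol Mtdh) are deleted by Cre made from the Lyz2 locus, which is active in myeloid cells in general and not in macrophages alone. AEG-1fl/fl mice carry the floxed gene without Cre. Flash-frozen liver was fixed and dissociated, and a probe-based assay counted transcripts in single cells, with 1 library per genotype. The sex of the mice and the number of livers in a library are not given in the sources used here.

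In this pathway citrate leaves the mitochondria and is cleaved to acetyl-CoA in the cytosol, the acetyl-CoA is carboxylated to malonyl-CoA, and a multifunctional synthase joins the units into palmitate with NADPH as the reductant. Palmitate is then lengthened and desaturated before it enters triglyceride. In the liver, insulin drives the genes of the pathway mainly through SREBP-1c, encoded by Srebf1, and sugar drives them through ChREBP, encoded by Mlxipl. The pathway is known for its rise in fatty liver and for its changes along the liver lobule, from the periportal side, where blood enters, to the pericentral side, where it leaves.

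With 1 library per genotype there was no replicate and no test between genotypes, and each value describes these 2 libraries. Levels are given in CPM, the counts of a gene per 1000000 counts summed over the cells of a class, with exact Poisson intervals. Ratios between genotypes divide the CPM of the AEG-1DMAC label by that of the AEG-1fl/fl label and are on the log2 scale, with Clopper-Pearson intervals. All intervals are at 95% and cover counting error only. The number of probes differs between genes and is not in the files, so a level was compared only within its own gene. Cells were named from marker genes. Among 1313 and 1307 hepatocytes, the libraries labelled AEG-1DMAC and AEG-1fl/fl held 64339381 and 67585904 counts. Hepatocyte markers had a median of 1197 and 1069 counts per 10000 in these cells, and the markers of each of the other 8 cell types had medians of at most 4.69.

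Both libraries had facts that touch every value below. The kept cells numbered 2571 and 3508, with 10 barcodes found in both libraries, and 28.1% and 24.1% of them were given no type. Mtdh ran against the labels in macrophages, with 145 CPM (126 to 165) in the library labelled AEG-1DMAC and 24.1 CPM (19.9 to 28.9) in the library labelled AEG-1fl/fl, a log2 ratio of 2.59. In hepatocytes, where the deletion is not intended, its log2 ratio was 0.09. Where the probes of Mtdh lie relative to the deleted part is not given in the files, so this check cannot settle the labels. Macrophages made up 7.00% of the kept cells in the library labelled AEG-1DMAC and 16.9% in the library labelled AEG-1fl/fl. Directions are therefore given by label throughout.

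The bases before the start of transcription are shown for Acly, Fasn and Mlxipl. Acly was the member zoned past 1.5-fold in both libraries, and Fasn is the enzyme that makes the fatty acid. Mlxipl is the sugar-driven regulator, and its level fell as the mitochondrial share of the hepatocyte rose. RefSeq promoters of GRCm38.p6 matched 8 of the 10 genes, with 12 starts. The longest run free of annotated exons in the 250 bases before each start was searched on both strands. This run was 121 bases for Elovl6, 211 for 1 start of Me1, 241 for Acacb and 250 for the others. The search took the letters TCACNCCAC (a form of the sterol regulatory element bound by SREBP), CACGTG (an E-box, the unit of ChREBP sites and of clock factor sites), CCAAT (bound by NF-Y) and GGGCGG (a GC box, bound by Sp1). Capitals mark a match, with a match on the other strand shown as its complement read along the printed strand, and a match is a description and not a site. The Fasn match CCAATTGG holds a pair of overlapping CCAAT matches, 1 on each strand. The sequences are from chr11:100528001-100528250 for Acly and chr11:120824548-120824797 for Fasn, both on the minus strand, and from chr5:135089640-135089889 and chr5:135106641-135106890 on the plus strand for the upstream and the downstream start of Mlxipl.
Acly: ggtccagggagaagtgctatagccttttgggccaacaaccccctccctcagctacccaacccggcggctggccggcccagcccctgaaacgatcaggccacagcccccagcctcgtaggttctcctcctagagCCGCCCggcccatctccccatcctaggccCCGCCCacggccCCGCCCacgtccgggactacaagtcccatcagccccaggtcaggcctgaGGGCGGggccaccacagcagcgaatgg
Fasn: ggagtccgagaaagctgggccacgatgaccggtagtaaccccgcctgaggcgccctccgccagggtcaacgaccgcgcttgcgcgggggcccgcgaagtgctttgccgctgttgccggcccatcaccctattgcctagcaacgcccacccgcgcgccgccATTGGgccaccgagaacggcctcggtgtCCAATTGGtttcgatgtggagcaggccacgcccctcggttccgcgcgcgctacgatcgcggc
Mlxipl, upstream start: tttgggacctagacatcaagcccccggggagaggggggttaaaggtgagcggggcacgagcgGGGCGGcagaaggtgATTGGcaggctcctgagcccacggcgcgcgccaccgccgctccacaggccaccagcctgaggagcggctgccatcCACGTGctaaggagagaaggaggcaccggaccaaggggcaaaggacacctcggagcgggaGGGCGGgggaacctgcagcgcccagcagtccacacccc
Mlxipl, downstream start: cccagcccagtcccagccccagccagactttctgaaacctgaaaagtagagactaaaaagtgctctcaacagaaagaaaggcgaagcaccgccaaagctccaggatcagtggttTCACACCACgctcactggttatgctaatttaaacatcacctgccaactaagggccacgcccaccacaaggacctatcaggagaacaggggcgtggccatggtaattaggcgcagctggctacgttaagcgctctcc
Acly held 4 GC boxes and no CCAAT, and Fasn held 3 CCAAT matches and no GC box. The upstream start of Mlxipl held the only CACGTG match in the bases searched before the 12 starts, and its downstream start held the only TCACNCCAC match. Of all 32851 promoters, each searched over the full 250 bases, 1.05% held TCACNCCAC, 6.02% CACGTG, 33.8% CCAAT and 32.7% GGGCGG.

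In hepatocytes, Elovl3 was the member that differed between the libraries by at least 1.5-fold, and it was higher in the library labelled AEG-1DMAC. The other 9 members lay within 1.5-fold. A gene was called past the fold when its level differed by at least 1.5-fold and its interval did not include 0. By this rule 1 of 10 members was higher and none lower, where 3.37% of the 10793 genes with at least 200 summed counts were higher and 3.70% lower. The median log2 ratio was 0.15 over the members and 0.02 over all genes tested.

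Acly (ENSMUSG00000020917, chromosome 11 of GRCm38, 100476353 to 100528000), the ATP citrate lyase that supplies cytosolic acetyl-CoA, had 287 CPM (283 to 291) in the library labelled AEG-1DMAC and 219 CPM (216 to 223) in the library labelled AEG-1fl/fl. Its log2 ratio of 0.39 (0.35 to 0.42) was above that of 92.1% of genes tested. Acaca (ENSMUSG00000020532, chromosome 11, 84129672 to 84401651), the cytosolic acetyl-CoA carboxylase, had 203 and 210 CPM, a log2 ratio of -0.05 (-0.08 to -0.01). Acacb (ENSMUSG00000042010, chromosome 5, 114146535 to 114250761), the carboxylase at the mitochondrial surface whose malonyl-CoA restrains fatty acid oxidation, had 128 and 137 CPM, a log2 ratio of -0.09 (-0.14 to -0.05). Neither carboxylase thus differed by more than 1.07-fold between the libraries. Fasn (ENSMUSG00000025153, chromosome 11, 120805846 to 120824547), the fatty acid synthase, had 902 CPM (894 to 909) and 767 CPM (760 to 773), a log2 ratio of 0.23 (0.22 to 0.25). Me1 (ENSMUSG00000032418, chromosome 9, 86581371 to 86695953), the cytosolic malic enzyme that supplies NADPH, had 213 CPM (210 to 217) and 147 CPM (144 to 150). At 0.54 (0.50 to 0.58), its log2 ratio lay at percentile 96.0 of the genes tested but under the 1.5-fold limit.

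Of the enzymes that modify palmitate, Scd1 (ENSMUSG00000037071, chromosome 19, 44394455 to 44407879), the stearoyl-CoA desaturase, had 23088 CPM in the library labelled AEG-1DMAC and 22625 CPM in the library labelled AEG-1fl/fl. Its log2 ratio was 0.03 (0.03 to 0.03), at percentile 51.6 of the genes tested. Elovl6 (ENSMUSG00000041220, chromosome 3, 129532355 to 129638495), which lengthens palmitate to stearate, had 152 and 145 CPM and a log2 ratio of 0.07 (0.03 to 0.11). Elovl3 (ENSMUSG00000038754, chromosome 19, 46131897 to 46135694), an elongase of longer saturated and monounsaturated chains, had 89.8 CPM (87.5 to 92.1) in the library labelled AEG-1DMAC and 31.5 CPM (30.2 to 32.9) in the library labelled AEG-1fl/fl. This was 2.85-fold, a log2 ratio of 1.51 (1.44 to 1.58), above that of 99.8% of the genes tested.

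Of the 2 regulators, Srebf1 (ENSMUSG00000020538, chromosome 11, 60199089 to 60222581) had 139 and 143 CPM, a log2 ratio of -0.04 (-0.08 to 0.00). Mlxipl (ENSMUSG00000005373, chromosome 5, 135089890 to 135138382) had 612 CPM (606 to 618) and 426 CPM (421 to 431), a log2 ratio of 0.52 (0.50 to 0.54), at percentile 95.8. Mlxipl stood close to the limit, and in 5 of 13 alternatives it passed it, with a highest log2 ratio of 0.74 without hepatocytes over 50000 counts, while without the fifth of hepatocytes with the lowest mitochondrial share it was 0.38. Counts are summed over all transcripts of a gene, so SREBP-1a and SREBP-1c, or the isoforms of ChREBP, were not separated.

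**Figure D1:**
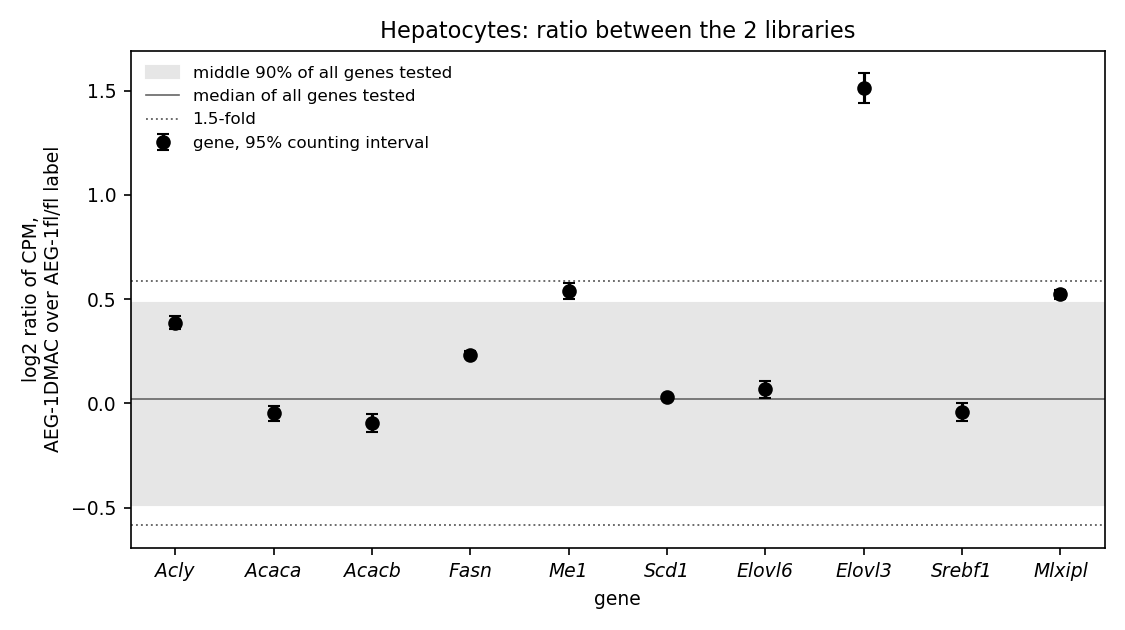
Log2 ratio of CPM between the 2 libraries in hepatocytes for each of the 10 genes (points, with 95% counting intervals), beside the middle 90% of all genes tested (grey band), their median (line) and the 1.5-fold limits (dotted). Elovl3 stands at 1.51, above the upper dotted line, while Me1 at 0.54 and Mlxipl at 0.52 lie just under it.

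The other genes of the pathway were counted from lists of 48 genes that hold none of the members. Of the 47 tested, 4 were higher and 4 lower past the fold, beside the 3.37% and 3.70% over all genes, with a median log2 ratio of -0.01. Among genes of sugar entry, Pklr, the liver pyruvate kinase and a classical ChREBP target, was lower at -0.68. Insig2, which holds SREBP in the endoplasmic reticulum, was higher at 1.14, and so were Scd2 at 0.76 and Pnpla3 at 0.65, both at under 8 CPM. Dgat2, which makes triglyceride, was lower at -0.65, as were the desaturase Fads1 at -0.61 and Thrsp, a lipogenic factor under sugar and thyroid hormone control, at -0.60. None of the 6 tested genes of precursor and NADPH supply passed the fold. The other 39 tested genes did not pass the fold.

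Elovl3 is known in mouse liver as a gene with a daily rhythm and with higher expression in males, so the lists for both are given beside it. Of 14 clock genes, 3 were higher in the library labelled AEG-1DMAC, namely Npas2 at 2.28, Arntl at 1.81 and Clock at 0.64, and 3 were lower, namely Per3 at -1.22, Dbp at -0.91 and Per2 at -0.70. Npas2, Arntl and Clock encode activators of the clock, and Per3, Dbp and Per2 are among the genes they drive. Of 12 tested genes with male-biased expression, 5 were lower and none higher, from C6 at -0.71 to Slco1a1 at -2.66. The list holds 4 genes of the Y chromosome, which were detected in both libraries and near even, with Ddx3y at 58.1 and 51.2 CPM (0.18), Uty at 23.3 and 21.2 CPM (0.14), Eif2s3y at 42.2 and 45.6 CPM (-0.11) and Kdm5d at 17.3 and 21.0 CPM (-0.28). All 5 genes that were lower are among the other 8 tested. Of 4 tested genes with female-biased expression, 3 were higher, Cyp2a4 at 0.59, Cyp2b9 at 3.96 and Sult1e1 at 4.81. Over all genes tested, 3.37% were higher and 3.70% lower past the fold. Elovl3 was higher in the library in which these 5 male-biased genes were lower and these 3 female-biased genes higher. The hour of collection is not given in the sources used here, and the part of the clock or of sex-biased expression in the ratio of Elovl3 was not tested.

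Within the lobule, Acly was periportal in both libraries, and it was the member past the fold in the same direction in both. Hepatocytes of each library were ordered by the raw counts of Cyp2e1, a pericentral enzyme, against those of Cyp2f2, a periportal one, and split into 3 equal parts, called the periportal, midlobular and pericentral zone. All 12 other zonation genes checked, among them Glul and Oat on the pericentral and Sds and Hal on the periportal side, differed in their known direction past the fold in both libraries. By the same rule 1 of 10 members was periportal and none pericentral in both libraries, where 1.63% of 9290 genes tested were periportal and 5.90% pericentral.

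Acly fell from 406 CPM in the periportal zone to 260 and then 173 CPM in the pericentral zone of the library labelled AEG-1DMAC. In the library labelled AEG-1fl/fl it went from 299.5 to 178 and 161 CPM. The log2 ratios of the pericentral over the periportal zone were -1.23 (-1.29 to -1.18) and -0.90 (-0.95 to -0.85), or 2.35-fold and 1.87-fold. Scd1 leaned the same way, at -0.47 and -0.40, without reaching the fold.

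Mlxipl and Elovl3 leaned to the pericentral side, each past the fold in 1 library. Mlxipl went from 356 to 672 and 856 CPM in the library labelled AEG-1DMAC, a log2 ratio of 1.27 (1.23 to 1.30). The library labelled AEG-1fl/fl went from 331 to 477 and 495 CPM, a log2 ratio of 0.58 (0.54 to 0.62), just under the limit. Elovl3 went from 72.2 to 97.2 and 104 CPM, a log2 ratio of 0.53 (0.44 to 0.62), and from 20.1 to 27.7 and 44.7 CPM, a log2 ratio of 1.15 (1.01 to 1.30). With 5 parts in place of 3, or with the order set by the 12 other zonation genes, both Mlxipl and Elovl3 were pericentral past the fold in both libraries. Acacb leaned the same way in both, at 0.54 and 0.46.

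The other 5 members ran differently in the 2 libraries. Elovl6 ran in opposite directions, from 167 to 144 and 142 CPM in the library labelled AEG-1DMAC, a log2 ratio of -0.23 (-0.30 to -0.16). In the library labelled AEG-1fl/fl it rose from 114 to 131 and 183 CPM, by 0.69 (0.62 to 0.76) on the log2 scale. Fasn was level in the library labelled AEG-1DMAC, with 910, 922 and 876 CPM, and rose toward the pericentral zone in the other, with 635, 734 and 913 CPM. Acaca had log2 ratios of -0.06 and 0.45, and Me1 of 0.00 and 0.34. Srebf1 leaned to the periportal side by -0.08 and -0.47.

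**Figure D2:**
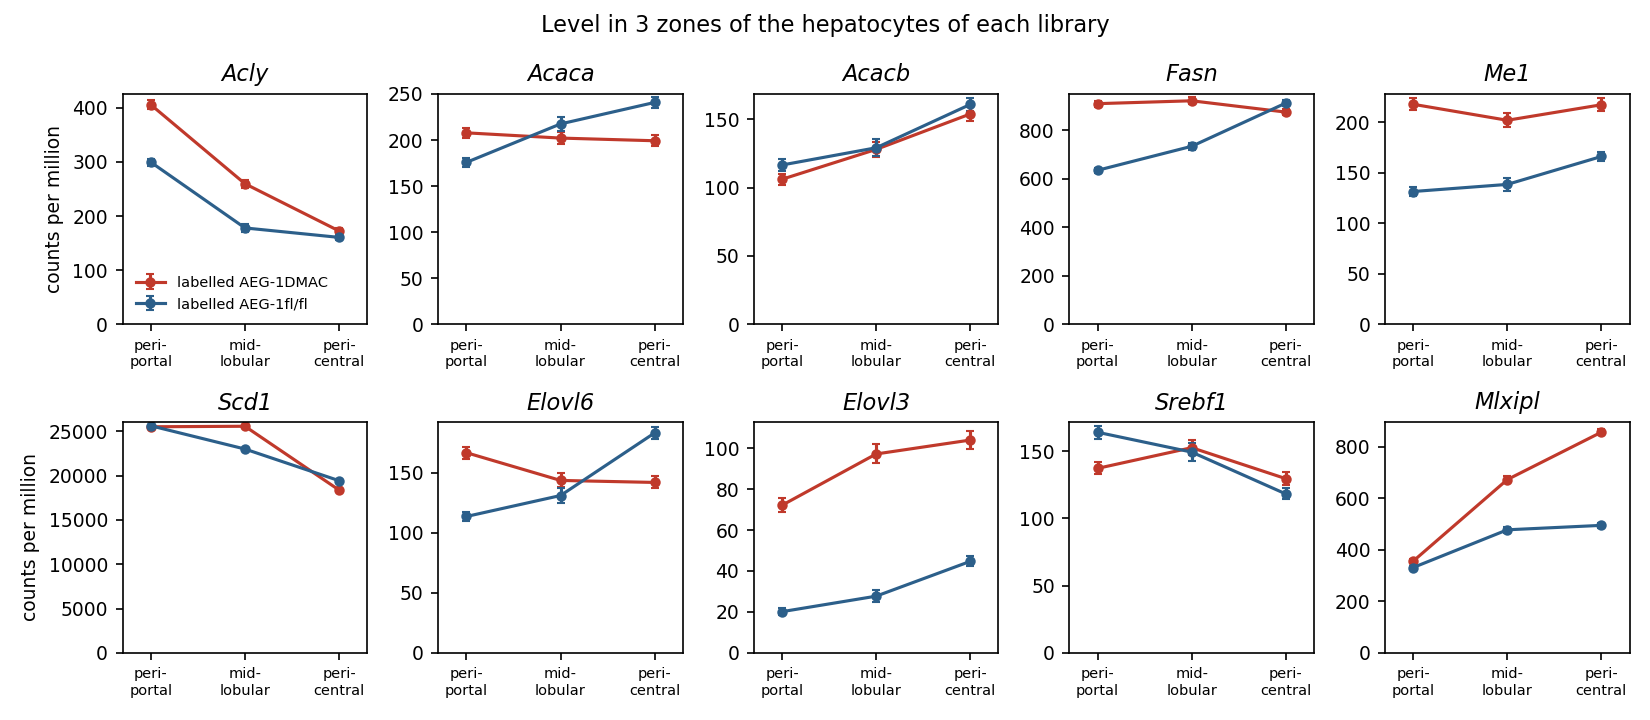
CPM of each gene in the periportal, midlobular and pericentral zone of the hepatocytes of each library (linear axes from 0, points with 95% Poisson intervals, which are mostly smaller than the points). Acly falls in both libraries, Mlxipl, Elovl3 and Acacb rise in both, and Fasn, Elovl6, Acaca and Me1 rise from zone to zone in the library labelled AEG-1fl/fl alone.

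The ratio between the libraries differed along the lobule for several members. Elovl3 was higher in each of the 3 zones, at 1.84, 1.81 and 1.22 from the periportal to the pericentral side. Mlxipl had its highest ratio in the pericentral zone, at 0.79, with 0.49 in the midlobular and 0.10 in the periportal zone. Me1 showed the opposite order, with 0.73 in the periportal zone and 0.54 and 0.39 in the others. Fasn went from 0.52 to 0.33 and -0.06, Elovl6 from 0.55 to 0.13 and -0.37, and Acaca from 0.24 to -0.11 and -0.27. Elovl6 and Acaca, close to even over all hepatocytes, were thus on opposite sides of even at the 2 ends of the lobule. Pericentral check genes were themselves higher in the library labelled AEG-1DMAC, with 5 of 6 past the fold over all hepatocytes, such as Glul at 0.93. Equal parts of the 2 libraries thus need not cover the same stretch of the lobule. With zones set over both libraries together, the counts of members periportal or pericentral in both libraries did not change. The ratios between the libraries within such zones are not given, so this does not bear on the opposite signs.

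Hepatocytes also differed among themselves in a way that split the members into opposite groups, and Mlxipl carried it most. The measure is the mitochondrial share, the percent of the counts of a cell that come from the mitochondrial genome, and the hepatocytes of both libraries together were cut into 5 classes by it, chosen after the data had been seen. Mlxipl fell from 2523 CPM in the class of lowest share (under 1.87%) to 177 CPM in the class of highest share (over 4.42%) in the library labelled AEG-1DMAC, or 14.3-fold. In the library labelled AEG-1fl/fl it fell from 858 to 164 CPM, or 5.23-fold. Mlxipl mRNA is known from mouse liver to be kept largely in the nucleus, as is that of Nlrp6, and Nlrp6 fell 9.35-fold and 4.77-fold over the same classes. Rsrp1 and Ccnl2, genes tied to RNA splicing, fell 13.5-fold and 13.2-fold in the library labelled AEG-1DMAC and 4.85-fold and 5.35-fold in the other. They were taken as the genes most correlated with Mlxipl across these same hepatocytes. A fall like that of Mlxipl follows from this choice and is not separate evidence. Nlrp6 was picked after its values were seen. Whether the barcodes of lowest share hold more nuclear than cytoplasmic RNA was not tested.

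Srebf1, Acaca, Acacb and Acly were also higher in the class of lowest share than in that of highest share in both libraries. Srebf1 fell from 271 to 93.8 CPM and from 177 to 88.1 CPM from the lowest to the highest class, with a log2 ratio of the lowest over the highest class of 1.53 (1.40 to 1.65) in the library labelled AEG-1DMAC. Acaca fell 2.41-fold, from 340 to 142 CPM, in the library labelled AEG-1DMAC and 1.20-fold in the other. Acacb was 1.39-fold and 1.32-fold higher in the lowest than in the highest class, and Acly 1.28-fold and 1.24-fold, though Acly peaked in class 2 of the library labelled AEG-1DMAC and in class 3 of the other. Scd1 ran the other way, from 8749.6 to 28888 CPM, or 3.30-fold, and from 15499 to 31095 CPM, or 2.01-fold. Fasn was likewise lower in the lowest class, by 1.58-fold and 1.45-fold, and so was Me1, by 1.46-fold and 1.43-fold, and Elovl6, by 1.36-fold and 1.23-fold. Elovl3 was nearly level over the classes, with log2 ratios of the lowest over the highest class of -0.02 (-0.18 to 0.14) and -0.14 (-0.37 to 0.09).

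**Figure D3:**
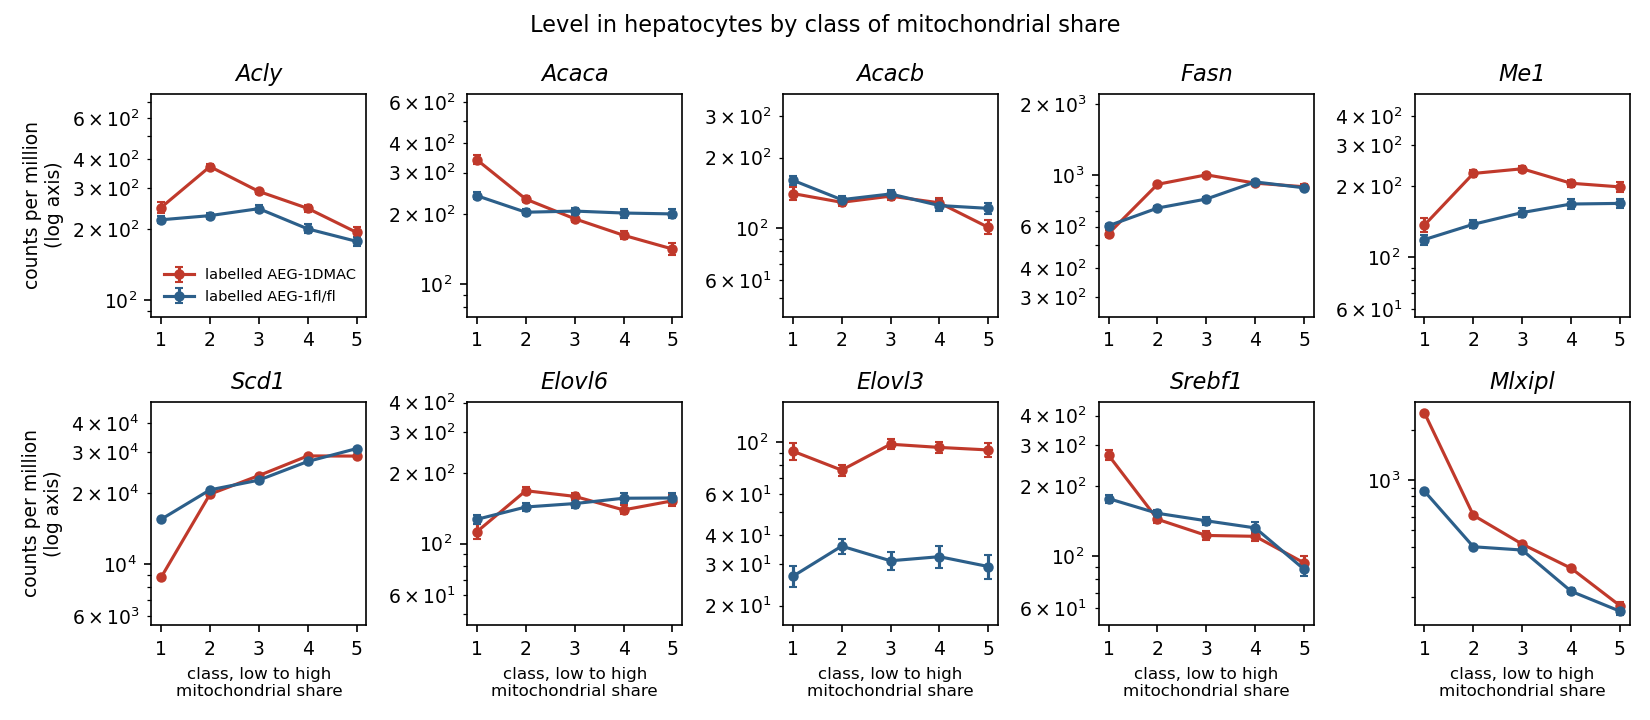
CPM of each gene in hepatocytes cut into 5 classes by mitochondrial share, lowest first, for each library (log axes that differ between panels, points with 95% Poisson intervals). Mlxipl and Srebf1 fall from the first to the last class, Scd1 rises, and the Elovl3 levels of the 2 libraries stay apart in every class.

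These classes bear on the ratio between the libraries. Elovl3 stayed higher in all 5 classes, with log2 ratios from 1.08 to 1.78. Mlxipl went from 1.56 in the class of lowest share to 0.63, 0.12, 0.46 and 0.11 in the others. Rsrp1, taken for its correlation with Mlxipl, and Nlrp6, picked after its values were seen, were at 1.44 and 1.09 in the lowest class. In the highest they were at -0.04 and 0.12. Scd1, close to even over all hepatocytes, was at -0.82 in the lowest class and between -0.11 and 0.08 in the other 4. Acaca went from 0.51 in the lowest class to -0.50 in the highest, and Srebf1 from 0.61 to 0.09. The lowest class held 240 hepatocytes of the library labelled AEG-1DMAC and 284 of the other, and in the former it made up 25.4% of the pericentral and 14.2% of the periportal zone, against 22.5% and 21.8% in the latter. Outside it, the pericentral over periportal log2 ratio of Mlxipl was 0.93 in the library labelled AEG-1DMAC, down from 1.27, and 0.54 in the other. That of Acly remained at -1.21 and -0.90.

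**Figure D4:**
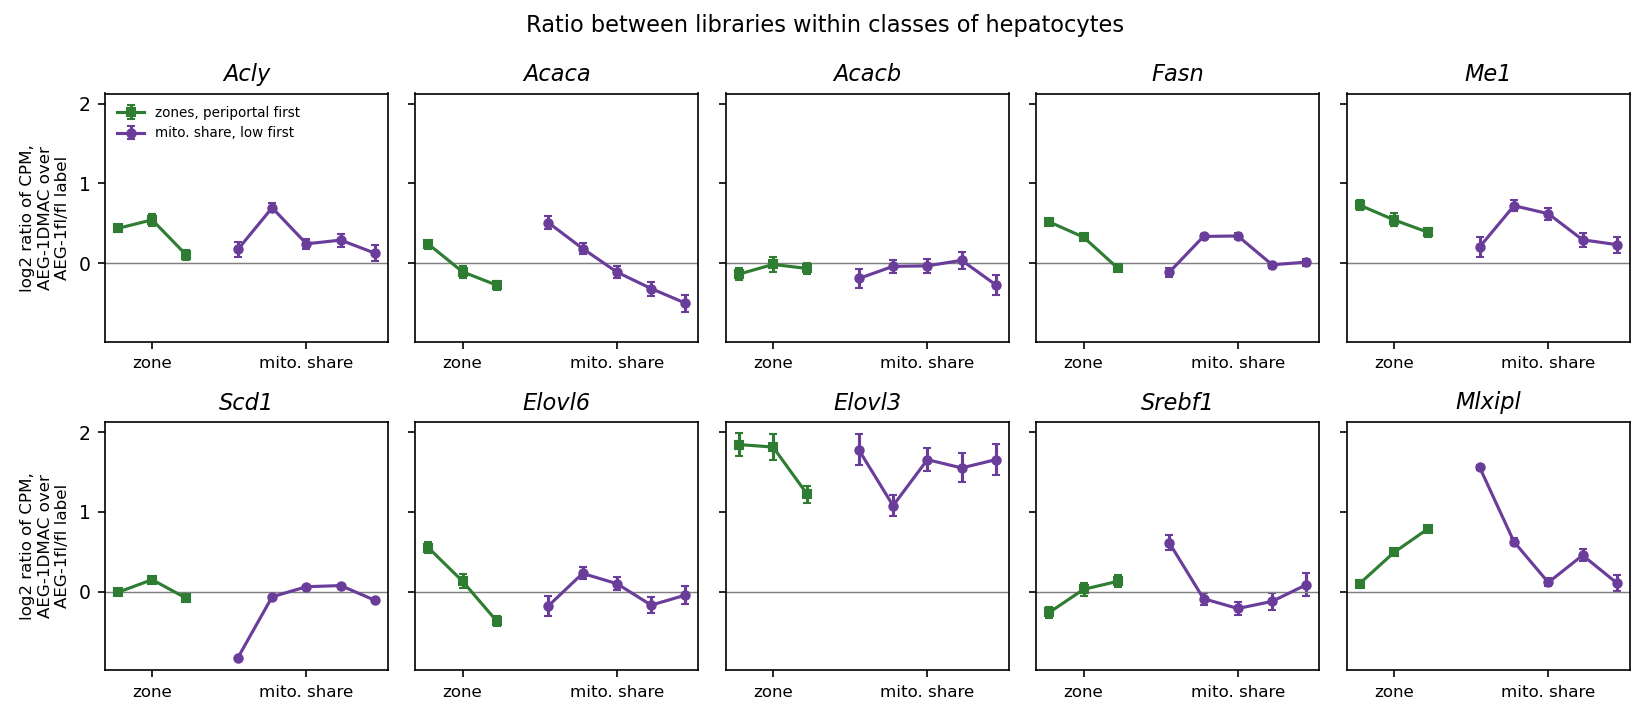
Log2 ratio between the 2 libraries for each gene within the 3 zones (squares, periportal first) and within the 5 classes of mitochondrial share (circles, lowest first), with 95% counting intervals and a line at 0. Elovl3 is above 1 in every class, and Mlxipl and Srebf1 are highest, and Scd1 lowest, in the class of lowest mitochondrial share.

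Cell by cell, each hepatocyte with at least 5000 counts was thinned to 5000, which kept 1178 and 1117 cells and left out 135 and 190. Scd1 then had a count in every cell of both libraries, and Fasn in 93.7% and 92.7%. Elovl3 had a count in 30.4% (27.8 to 33.1) of the hepatocytes of the library labelled AEG-1DMAC and 11.5% (9.73 to 13.6) of those of the other, and without thinning in 71.4% and 43.7%. The remaining 7 members had a count in between 46.2% and 65.9% of thinned cells. Mlxipl was the most uneven of these 7, with a variance of 9.61 and 6.84 times its mean, where Acacb, at 1.13 and 1.26 times, was close to counting error. In the same cells before thinning, the 10th, 50th and 90th percentiles of Mlxipl were 0, 2.18 and 28.3 counts per 10000 in the library labelled AEG-1DMAC. In the other they were 0, 1.53 and 17.5.

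Across these thinned cells, the members did not form 1 group. Correlations are of log2(1 + counts), with the values of the libraries labelled AEG-1DMAC and AEG-1fl/fl in that order, and the cells of a library share its depth and its free RNA. Of the 45 pairs, Acaca with Mlxipl had the highest lower value, at 0.31 and 0.25, followed by Srebf1 with Mlxipl at 0.25 and 0.26 and Fasn with Scd1 at 0.37 and 0.21. Scd1 with Mlxipl had the lowest, at -0.67 and -0.62. From the lowest to the highest class of mitochondrial share, Mlxipl fell and Scd1 rose in both libraries. The correlations were not adjusted for this share, and its part in them was not tested. Fasn with Acaca, consecutive enzymes of the same pathway, stood at 0.00 and 0.05.

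Among 3413 genes with a mean of at least 0.2 counts, those most like each member were ranked by the lower of its 2 correlations. For Scd1 they were the apolipoproteins Apoa2, Apoe and Apoc1, at 0.71 to 0.80. For Mlxipl they were Rsrp1, Ccnl2 and Zbtb16, at 0.71 to 0.81. Fasn and Me1 shared all 3 of their closest genes, Fabp1, Cat and Aldh2, at 0.20 to 0.48. Among the genes nearest to Acly were Ass1 and Arg1, periportal enzymes of the urea cycle, at 0.20 to 0.25. Elovl6 was nearest to Fasn, at 0.21 and 0.18, and then to Elovl5 and Mgst1. The closest genes of Acaca were Lpin2, Mlxipl and Rsrp1 at 0.24 to 0.31, and those of Srebf1 were Apoa5, Slc38a3 and Errfi1 at 0.25 to 0.27. Those of Elovl3 were Cyp2e1, Rbp4 and Mgst1 and those of Acacb were Rgs16, Thrsp and Herpud1, none above 0.18, which is too weak to describe a shared pattern.

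Outside hepatocytes, Acly, Acaca and Srebf1 were counted above the level that free hepatocyte RNA gives, and the other 7 members were not shown to be in both libraries. Free RNA was measured with 20 genes made by hepatocytes alone, such as Ambp and Fga. In macrophages their level was a median of 25.9% (range 20.6 to 38.1) of that in hepatocytes of the library labelled AEG-1DMAC and 20.3% (17.3 to 32.3) in the other library. In endothelial cells it was 31.1% and 21.4%, and in stellate cells 26.5% and 24.99%. A member was taken to be above this background where the lower limit of its own percentage exceeded every one of the 20 genes in both libraries. The share of all genes that pass this rule was not counted. The counts of members passing therefore cannot be read as particular to this pathway.

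Macrophages numbered 180 and 593, and 3 members passed. Acly had 253 and 220 CPM, or 88.2% (79.6 to 97.6) and 100.1% (93.9 to 106.6) of its level in hepatocytes. Srebf1 had 57.8% (47.9 to 69.1) and 62.4% (56.5 to 68.8), and Acaca 53.6% (45.7 to 62.5) and 55.5% (50.9 to 60.4). Scd1, at 31.98% and 21.2%, and Fasn, at 34.0% and 23.0%, lay within the range of the hepatocyte genes in both libraries. With cell types taken from unsupervised clusters, in which free RNA reached 45.3% and 22.5%, Acly alone passed.

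In endothelial cells, 172 and 297 of them, Acly passed at 60.04% and 68.7% and Acaca at 58.5% and 46.9%. With a stricter gate, and with clusters, Acly alone passed. In the 92 and 204 stellate cells no member passed in both libraries, though Acaca reached 77.6% (60.8 to 97.7) and 66.4% (57.8 to 76.1). The highest of the 20 hepatocyte-only genes stood at 60.97% and 33.7% there. With cells weighted equally Acaca passed. T and NK cells, at 24 and 88, had Acly above the background, at 133% (89.4 to 189) and 120% (94.5 to 150), and B cells, neutrophils, dendritic cells and cholangiocytes had no member above the background in both libraries.

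**Figure D5:**
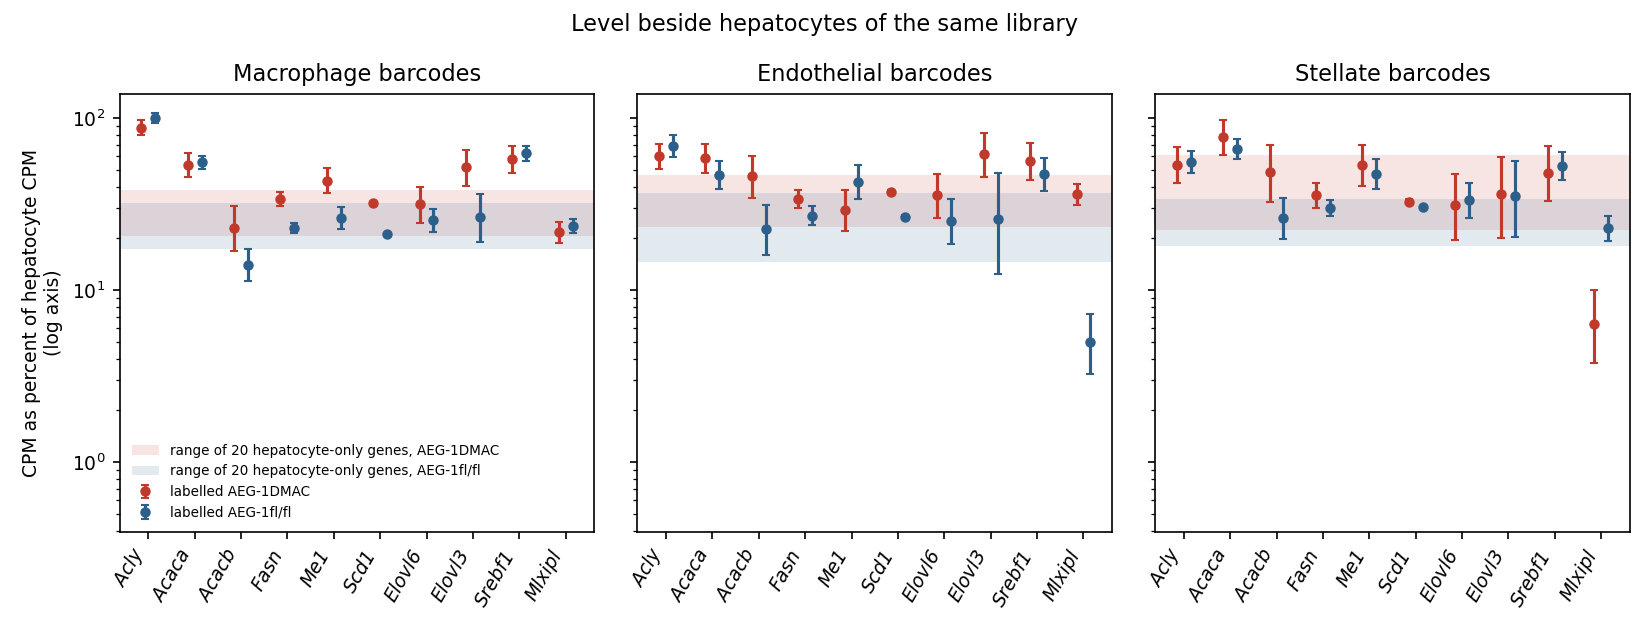
CPM in macrophages, endothelial cells and stellate cells as a percentage of the CPM in hepatocytes of the same library (log axis, points with 95% counting intervals), with bands for the range of 20 hepatocyte-only genes in each library. In macrophages, Acly, Acaca and Srebf1 lie above both bands in both libraries, while Scd1, Elovl6 and Mlxipl lie within them.

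In these cells the ratios between libraries stand beside a higher median of free RNA in the library labelled AEG-1DMAC, and its part in them was not tested. The log2 ratio of Elovl3 was 2.48 (1.90 to 3.08) in macrophages, 2.77 (1.77 to 3.91) in endothelial and 1.55 (0.44 to 2.64) in stellate cells. Free RNA also carries the hepatocyte difference in Elovl3. At its median it would give 23.2 and 6.38 CPM in macrophages, where 46.7 and 8.37 CPM were counted. For endothelial cells these values are 27.9 and 6.75 CPM, with 55.5 and 8.15 counted. For stellate cells they are 23.8 and 7.87 CPM, with 32.4 and 11.1 counted. The Elovl3 ratios thus cannot be read as a difference made by these cells. It passed the background in macrophages of the library labelled AEG-1DMAC, at 52.0% (40.5 to 65.6), and not in those of the other, at 26.6% (18.9 to 36.3). The macrophage values rest on 71 and 40 counts, the endothelial ratio on 49 and 10 and the stellate ratio on 15 and 17. In endothelial and stellate cells Elovl3 did not pass the background in either library. Mlxipl had 36.1% of its hepatocyte level in endothelial cells of the library labelled AEG-1DMAC and 4.98% in those of the other, a log2 ratio of 3.38. Of its 195 counts in the former, 174 were in 3 of the 172 cells, and the other cells held 21 counts, beside 20 outside the top 3 cells of the other library. In macrophages 3 of 180 cells held 170 of 203 counts of Mlxipl in the library labelled AEG-1DMAC, and 3 of 593 cells held 188 of 482 in the other. Whether these barcodes also hold hepatocyte RNA of the nucleus was not tested.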

How the data were processed

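Single-cell RNA was measured in 1 library per genotype. Raw counts of each gene in each cell, not normalized, are what the authors deposited; the submitters' processing notes name Cell Ranger 7.1.0, Seurat and mm10. The genes followed and the gene lists were chosen with earlier results of these data known.

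Following the study's filter, cells under 100 genes or over 10% mitochondrial counts were left out (10 and 27 cells). Doublets were not called, and the deepest cell had 716497 counts. Median depth was 12742 and 7686 counts a cell over all deposited cells. A hepatocyte had at least 300 counts of hepatocyte markers per 10000 and the markers of every other type below 0.5 of that type's limit. The other types had to pass the limit of 1 type alone, with at least 3 counts and 2 markers, and at most 700 hepatocyte marker counts per 10000. Within 20% above the limit lay 45 and 46 of the hepatocytes. The gate was set after markers had been examined, and no member was used in it. Zone order was log2 of (Cyp2e1 + 1) over (Cyp2f2 + 1).

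Sums, intervals and thinning used NumPy 2.4.6, pandas 2.3.3 and SciPy 1.17.1 under Python 3.11.15. Clusters came from igraph 0.11.9, without the members. The ratio and the thinning were tested on simulated data. Named are the 10 members, list genes past the fold, and the 3 genes most like each member. Exceptions, named after their values were seen, are Nlrp6 and list genes given as examples. Gene positions were read from GENCODE (GRCm38), promoters from RefSeq. Some genes that the rule would name are not reported here.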

Additional observations from a re-analysis of the deposited data

Results flagged for a closer look

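Acacb and Mlxipl were picked out because their ratio between the libraries pointed in opposite directions in hepatocytes and in another cell type, each with an interval that did not include 0. The difference between cell types was not tested. Acacb had a log2 ratio of -0.093 in hepatocytes but 0.62 in macrophages, 0.93 in endothelial and 0.80 in stellate cells. Its counts outside hepatocytes were few, from 29 to 92 per type and library, and at 14.1% to 48.9% of the hepatocyte level they did not exceed the range of hepatocyte-only genes. Mlxipl had a log2 ratio of 0.52 in hepatocytes and -1.33 in stellate cells. Of its 150 counts in stellate cells of the library labelled AEG-1fl/fl, 105 were in 3 of the 204 cells, and the remaining cells held 45.

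Along the lobule, 3 members had opposite slopes in the libraries labelled AEG-1DMAC and AEG-1fl/fl, again with intervals that did not include 0 and no test of the difference. The log2 ratio of the pericentral over the periportal zone was -0.23 and 0.69 for Elovl6, -0.061 and 0.45 for Acaca and -0.056 and 0.52 for Fasn. The ratio between the libraries accordingly had opposite signs at the ends of the lobule, with 0.55 in the periportal and -0.37 in the pericentral zone for Elovl6, 0.24 and -0.27 for Acaca, and 0.52 and -0.060 for Fasn. Srebf1 ran the other way, with -0.26 in the periportal and 0.13 in the pericentral zone. The negative slopes of Acaca and Fasn were close to 0 and did not keep their sign under all alternatives. In the library labelled AEG-1DMAC, Acaca reached 0.18 without hepatocytes over 50000 counts. Fasn reached 0.096 there with the order by other zonation genes. Elovl6 stayed between -0.25 and -0.15 in that library and between 0.63 and 0.80 in the other.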

How the results depend on the processing

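No paired analysis was possible because each genotype has 1 library. Elovl3 remained past the fold in hepatocytes under all 13 alternatives, between 1.42 and 1.61 on the log2 scale. The count of members higher past the fold went from 1 to 2, with Mlxipl added, for the mean over cells of counts per 10000, without hepatocytes over 50000 counts, for cells thinned to 5000 counts, with a stricter gate and with unsupervised clusters. The count of members lower past the fold was 0 throughout. The count of members pericentral in both libraries went from 0 to 2 (Elovl3 and Mlxipl) with 5 parts and with the order by other zonation genes, and to 1 (Mlxipl) for cells thinned to 5000 counts. Acly was periportal in both under all 6 alternatives. The count of members above every hepatocyte-only gene went from 3 to 1 in macrophages with unsupervised clusters, from 2 to 1 in endothelial cells with a stricter gate and with unsupervised clusters, and from 0 to 1 in stellate cells for the mean over cells (Acaca) and with unsupervised clusters (Scd1). In the stellate clusters the median of free RNA was 67.6% and 60.5% of the hepatocyte level. No value past the fold changed sign. Shares of all genes past the fold ranged from 2.79% to 4.66% higher and from 2.28% to 5.51% lower. Leaving out the fifth of hepatocytes with the lowest mitochondrial share, leaving out shared barcodes and weighting zones equally were chosen after seeing the data, and none of them changed a count. After subtraction of free hepatocyte RNA, 8 members kept a level above 0 in both libraries in macrophages, 8 in endothelial and 9 in stellate cells. The subtraction took off the median of the hepatocyte-only genes, so those of them above the median would also keep a level. A level that is left thus does not show that a member is expressed there. Scd1 kept 0.91% of its hepatocyte level in macrophages of the library labelled AEG-1fl/fl. Depth was not the limit in hepatocytes, while in other cell types Elovl3, Elovl6, Acacb and Me1 rest on under 200 counts each. Members above the background there also rest on few counts. In macrophages of the library labelled AEG-1DMAC, Acaca had 166 counts and Srebf1 122. In endothelial cells of the libraries labelled AEG-1DMAC and AEG-1fl/fl, Acly had 152 and 185 counts and Acaca 105 and 121. In T and NK cells Acly had 30 and 76.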

Other observations

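Adipocyte genes were close to undetected in hepatocytes: of 6 listed, only Cidea, which fatty hepatocytes are also known to express, had enough counts to be tested, at 97.1 and 119 CPM and a log2 ratio of -0.30. The members also varied with the depth of the cell. Mlxipl had 1048 CPM in hepatocytes of the library labelled AEG-1DMAC with 5000 to 20000 counts and 457 CPM in those with at least 50000, and in the other library 628 and 372 CPM. It did not fall steadily with depth, since hepatocytes under 5000 counts had 427 and 415 CPM. Elovl3 had 74.0 CPM at 5000 to 20000 counts and 92.5 CPM at 50000 or more in the library labelled AEG-1DMAC. In the other library it had 23.4 and 32.8 CPM.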
